A study of Homo sapiens with 16 samples.

Results

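The oxidative phosphorylation genes described here are the subunit genes of the respiratory chain and of ATP synthase. They were chosen by name from the deposited table of gene names: NDUF subunits of complex I, SDH subunits of complex II, UQCR subunits of complex III, COX subunits of complex IV, ATP5 subunits of complex V, and the protein-coding genes of the mitochondrial genome, with pseudogene names left out. The choice gave 93 of the 40888 genes with a count, of which 80 are nuclear and 13 mitochondrial. Among the nuclear genes, 37 carry complex I names, 4 complex II, 9 complex III, 12 complex IV and 18 complex V. The mitochondrial genes are 7 of complex I, 1 of complex III, 3 of complex IV and 2 of complex V. Read to the letter, the rule on pseudogene endings would also drop MT-ATP6 and MT-ATP8 and leave 11 mitochondrial genes; both were kept, because the rule names MT-ATP genes. One name that passed, ATP5J2LP, is annotated as a pseudogene.

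The study sequenced polyadenylated RNA from VCaP, a human prostate cancer cell line that depends on the androgen receptor. Ver cells had been kept for 4 months in 1 µM enzalutamide, an antagonist of the androgen receptor, and Vc cells for 4 months in ethanol. Both were then starved of steroids for at least 48 h in medium with stripped serum and treated for 24 h with 1 nM dihydrotestosterone (DHT, an androgen) plus 1 µM enzalutamide, with 1 nM DHT, with 1 µM enzalutamide, or with control medium. This gave 8 groups of 2 libraries. Ver and Vc are 1 line each, and the labels do not say whether the 2 libraries of a group came from separate cultures, so p-values measure the spread between libraries only. All Ver libraries carry lane 2 in their labels and all Vc libraries lane 8, so lane and line cannot be told apart. In bulk RNA, fewer cells expressing a gene and less RNA per cell cannot be told apart either.

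Complexes I to IV pass electrons from NADH and succinate to oxygen and, except for complex II, pump protons across the inner mitochondrial membrane, and complex V uses that gradient to make ATP. Complexes I, III, IV and V are built from proteins of both genomes: the mitochondrial DNA, transcribed as long polycistronic RNAs from both strands, encodes core subunits, and nuclear genes on many chromosomes encode all others. Complex II is wholly nuclear. In these data the nuclear genes lay on 22 chromosomes, while 12 of the 13 mitochondrial genes are read from the same strand and MT-ND6 from the other.

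Mitochondrial genes are packed without spacers and some share bases, which bears on how reads were counted. The stretch below is shown because it is common to MT-ATP8 and MT-ATP6: the 46 bases at chrM:8527-8572 (GRCh38, plus strand, GENCODE 29), with the start codon of MT-ATP6 and the stop codon of MT-ATP8 in capitals. Reads that touch bases of both genes are set aside as ambiguous in the counting mode used, so the levels of this pair rest on the remaining reads.
MT-ATP8 and MT-ATP6 shared bases: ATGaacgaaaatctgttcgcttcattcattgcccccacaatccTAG

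Promoters of nuclear members are known for sites of NRF1, of ETS factors such as GABP, and of YY1. Windows of 300 bases, 250 before and 50 after the transcription start, were taken from RefSeq (GRCh38.p14) and matched 62 of the 80 nuclear genes. Exact letters were searched on both strands, and no motif contains another. The NRF1 letters GCGCATGCG were present in 10 of these 62 promoters (16.1%), against 1.92% of all 35116 promoters. The ETS letters CCGGAAGT were present in 9 (14.5%), against 4.14% of all promoters. The YY1 letters AAGATGGCG were present in 8 (12.9%), against 1.75% of all. The hexamer AGAACA of the androgen response element was present in 7 (11.3%), against 14.8% of all promoters. A match is a description of letters only. The 4 promoters below belong to genes that the results turn on: COX5B and COX8A, which were higher with DHT, and NDUFB4 and ATP5G2, which were lower. Capitals mark ETS letters in COX5B (2 copies) and COX8A (1 copy, on the reverse strand) and NRF1 letters in NDUFB4 (both strands, in overlapping bases) and ATP5G2 (1 copy, on the reverse strand). COX8A also holds the hexamer AGAACA on the reverse strand, left in lower case. These 4 are examples from the genes described below, and each holds a marked motif. Other members that rose with DHT hold other letters or none. NDUFS6 holds the NRF1 letters and NDUFA6 the YY1 letters, while COX6B1, NDUFA1, NDUFS8 and NDUFB10 hold no NRF1, ETS or YY1 letters. Over all matched and tested members, the NRF1 letters were present in 5 of 27 promoters of members that rose with DHT in Vc (18.5%) and in 5 of 34 of the other tested members (14.7%), and the ETS letters in 6 of 27 (22.2%) and 3 of 34 (8.82%). The other 2 motifs went the other way. The YY1 letters were present in 2 of 27 (7.41%) and 6 of 34 (17.6%), and AGAACA in 2 of 27 (7.41%) and 5 of 34 (14.7%).
COX5B (chr2:97645812-97646111, plus strand): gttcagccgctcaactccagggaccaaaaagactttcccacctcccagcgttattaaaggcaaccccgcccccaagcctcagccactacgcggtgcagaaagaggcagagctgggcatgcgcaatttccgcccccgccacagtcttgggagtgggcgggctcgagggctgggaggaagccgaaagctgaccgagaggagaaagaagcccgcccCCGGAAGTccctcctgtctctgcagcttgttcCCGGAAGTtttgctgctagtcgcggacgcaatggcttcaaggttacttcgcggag
COX8A (chr11:63974370-63974669, plus strand): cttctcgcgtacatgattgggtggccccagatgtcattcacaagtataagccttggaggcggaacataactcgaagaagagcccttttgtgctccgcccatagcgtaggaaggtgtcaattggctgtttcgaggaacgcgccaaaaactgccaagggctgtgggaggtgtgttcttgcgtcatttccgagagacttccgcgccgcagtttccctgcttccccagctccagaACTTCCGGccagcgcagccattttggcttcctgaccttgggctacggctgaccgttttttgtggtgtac
NDUFB4 (chr3:120596086-120596385, plus strand): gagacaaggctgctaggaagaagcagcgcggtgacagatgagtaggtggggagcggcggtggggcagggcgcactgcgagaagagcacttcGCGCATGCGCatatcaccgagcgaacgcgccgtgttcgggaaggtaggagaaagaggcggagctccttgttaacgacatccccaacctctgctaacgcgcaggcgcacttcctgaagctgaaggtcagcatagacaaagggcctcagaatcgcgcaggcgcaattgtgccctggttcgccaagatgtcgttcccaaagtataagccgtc
ATP5G2 (chr12:53676034-53676333, minus strand): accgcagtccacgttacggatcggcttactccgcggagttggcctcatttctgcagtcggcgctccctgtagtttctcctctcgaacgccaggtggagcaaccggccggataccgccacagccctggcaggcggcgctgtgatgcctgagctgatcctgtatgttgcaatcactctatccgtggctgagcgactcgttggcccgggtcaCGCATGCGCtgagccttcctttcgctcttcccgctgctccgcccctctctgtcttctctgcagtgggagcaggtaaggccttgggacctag

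The members with the highest levels per length were mitochondrial. Levels are given as CPM, counts scaled to a common library size by the TMM method, and between genes only per kilobase of merged exons. Over all 16 libraries MT-CO1, the catalytic subunit of complex IV, averaged 4291 ± 329 CPM per kilobase (SD). MT-CO3 averaged 3533 ± 282 and MT-CO2 2959.97 ± 187 CPM per kilobase. MT-ATP8, of which 22.2% of the bases lie in the shared stretch above, was the lowest of the 13 at 278 ± 59.9 CPM per kilobase. The nuclear members with the highest level per length were ATP5B, the catalytic beta subunit of ATP synthase, at 339 ± 42.1, and COX8A at 307 ± 67.7 CPM per kilobase, followed by COX6B1 at 96.9 ± 27.3. Long untranslated exons in the merged gene models lower such values, and 49 of the 93 members overlap an exon of another gene, whose reads unstranded counting cannot assign with certainty. Among genes described below, NDUFA1 shares 44.5% of its exon bases with RNF113A on the opposite strand, COX8A 34.5% with AP000721.1, UQCRQ 20.8% with GDF9 and NDUFC1 18.6% with MGARP. Of all members, 91 passed the filter on low counts. COX8C, an isoform of COX8A, had 1 count in all and ATP5J2LP had 38, and neither was tested.

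Summed over the 13 genes, mitochondrial RNA in TMM-scaled CPM was lower in the libraries with DHT than in control, and summed nuclear RNA was higher; without TMM scaling the nuclear sum in Ver was lower with DHT alone. In Ver, mitochondrial members summed to 22274 and 22736 CPM with both compounds, 20885 and 21555 CPM with DHT, 22810.1 and 24387 CPM with enzalutamide and 23055 and 23459 CPM in control. In Vc the sums were 21855 and 21447 CPM with both compounds, 22922 and 21749 CPM with DHT, 24129 and 24485 CPM with enzalutamide and 26564 and 24686 CPM in control. In either line both DHT libraries lay below both control libraries. Nuclear members summed to 5302 and 5317 CPM with both compounds, 5363 and 5222 CPM with DHT, 4982 and 4714 CPM with enzalutamide and 4774 and 4869 CPM in Ver control. In Vc they summed to 5593 and 5683 CPM with both compounds, 5931 and 5862 CPM with DHT, 5037 and 4878 CPM with enzalutamide and 5017 and 4921 CPM in control. Here both DHT libraries lay above both control libraries in either line. The ratio of the mitochondrial to the nuclear sum was 4.01 ± 0.165 with DHT and 4.82 ± 0.00764 in control for Ver, and 3.79 ± 0.109 with DHT and 5.16 ± 0.197 in control for Vc (mean ± SD, n = 2). With both compounds the ratio was 4.24 ± 0.0525 in Ver, above its DHT libraries, and 3.84 ± 0.0948 in Vc, where the libraries overlapped those with DHT. As raw counts, mitochondrial members held 1.96 to 2.73% of the gene counts of a library. The nuclear share of the gene counts was 0.503 and 0.481% with DHT against 0.506 and 0.515% in Ver control, and 0.544 and 0.538% with DHT against 0.515 and 0.512% in Vc control. On this unscaled measure both DHT libraries lay below both control libraries in Ver and above them in Vc. Nuclear copies of mitochondrial genes held counts worth 1.76 to 1.996% of those of the mitochondrial members.

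**Figure D1:**
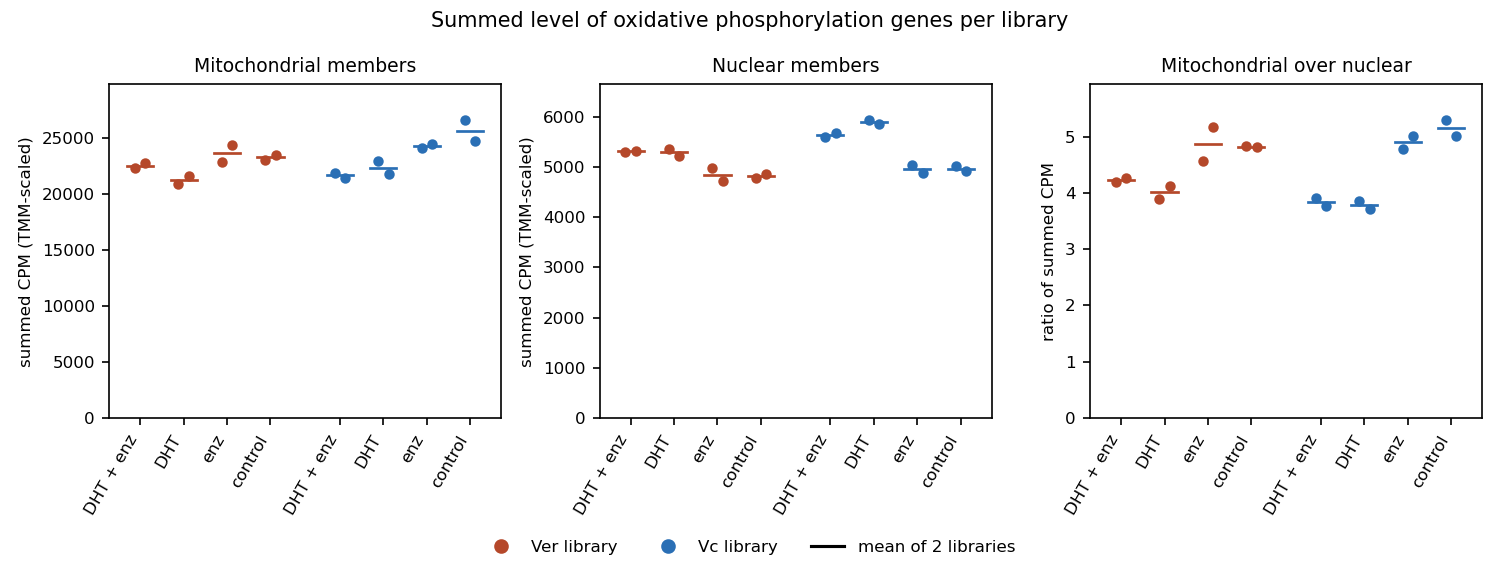
Summed CPM of the 13 mitochondrial members, of the nuclear members, and the ratio of both sums in each of the 16 libraries (points; lines are means of 2 libraries), by line and treatment (enz, enzalutamide). In TMM-scaled CPM the mitochondrial sum is lower and the nuclear sum higher in libraries with DHT than in control libraries of the same line; as an unscaled share of gene counts, the nuclear sum in Ver is lower with DHT alone than in control.

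With DHT more nuclear subunit genes rose than fell, and no mitochondrial gene rose. In Ver, 26 of the 78 nuclear members tested rose and 7 fell with DHT against control, while 44.1% of all genes tested were called in either direction, 21.2% higher and 22.9% lower (edgeR quasi-likelihood F test, Benjamini-Hochberg adjusted p under 0.05 over 22553 genes). In Vc, 31 of 78 rose and 3 fell, against a background of 44.3% of genes called, 21.8% higher and 22.5% lower. The share of nuclear members called was thus near that of all genes, and the split by direction was not. The median log2 change of nuclear members was 0.12 in Ver and 0.21 in Vc, against -0.04 for all genes in either line. The genes that rose in both lines numbered 24, which is 24 of the 26 in Ver and of the 31 in Vc, and all 3 that fell in Vc also fell in Ver. The same overlap was not counted over all genes, so these numbers are a description only. Scaling matters for this balance: with library totals alone, the median of all genes moves by -0.19 in Ver and -0.17 in Vc, the share of higher genes among all calls is 31.97% in place of 48.0% in Ver and 34.4% in place of 49.2% in Vc, and the nuclear members called become 13 higher and 19 lower in Ver and 25 higher and 13 lower in Vc. The share of reads that overlapped no counted feature was also lower with DHT. It was 45.4 ± 0.213% against 48.8 ± 0.250% in Ver control and 46.98 ± 0.130% against 50.4 ± 0.342% in Vc control (mean ± SD, n = 2). Its part in these changes was not tested.

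Complex I, the NADH dehydrogenase, had 11 nuclear members higher and 2 lower in Ver and 13 higher and 1 lower in Vc, of 37. Beside this, 21.2% of all genes tested were higher and 22.9% lower in Ver, and 21.8% higher and 22.5% lower in Vc. NDUFA6, an accessory subunit of the matrix arm, stood at 29.96 and 26.9 CPM with DHT against 16.3 and 17.98 CPM in Ver control, and at 33.7 and 30.8 CPM against 16.2 and 19.03 CPM in Vc control. The log2 change was 0.73 ± 0.14 in Ver and 0.88 ± 0.13 in Vc (± SE; edgeR adjusted p = 1.59e-06 and 3.29e-09), and in either line the DHT and control libraries were well apart. NDUFS8, a core subunit that holds iron-sulfur clusters, reached 206 and 199 CPM with DHT against 136 and 129 CPM in Ver control, and 203 and 194 CPM against 126 and 119 CPM in Vc control. Its groups did not overlap, with log2 changes of 0.62 ± 0.06 in Ver and 0.70 ± 0.06 in Vc. NDUFA1, an accessory subunit of the membrane arm, was at 23.2 and 19.9 CPM with DHT against 17.1 and 16.5 CPM in Ver control and at 27.7 and 27.9 CPM against 16.9 and 14.2 CPM in Vc control. The Vc libraries were widely separated, whereas the Ver call (log2 0.36 ± 0.14, edgeR adjusted p = 0.0273) was lost under DESeq2, with library totals, and when either Ver control library or Ver DHT replicate 1 was left out. NDUFS6, a zinc-binding subunit of the matrix arm, rose by 0.73 in Ver and 0.60 in Vc, and NDUFB10 by 0.51 and 0.70 on the log2 scale.

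NDUFB4, an accessory subunit of the distal membrane arm, moved the other way and was the nuclear member with the largest fall in Vc. It stood at 62.5 and 64.7 CPM with DHT against 78.5 and 73.4 CPM in Ver control, and at 62.98 and 55.7 CPM with DHT against 90.3 and 98.04 CPM in Vc control. All DHT libraries lay below all control libraries of their line, by log2 -0.26 ± 0.08 in Ver and -0.66 ± 0.07 in Vc (edgeR adjusted p = 0.00318 and 2.36e-14). Without Ver control replicate 1 the Ver call was lost (adjusted p = 0.0636).

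Complex II, succinate dehydrogenase, is the one complex with no mitochondrially encoded subunit. SDHD, one of its membrane anchors, was at 44.2 and 44.8 CPM with DHT against 37.5 and 36.4 CPM in Ver control, and at 59.1 and 64.5 CPM against 41.7 and 39.2 CPM in Vc control. It rose in both lines, and its Ver call was lost with library totals and when either Ver DHT library or Ver control replicate 2 was left out. SDHA, the flavoprotein that oxidises succinate, was at 85.5 and 85.8 CPM with DHT against 82.5 and 83.7 CPM in Ver control, a difference that missed the threshold, and at 126 and 126 CPM against 99.7 and 101 CPM in Vc control, where it rose by log2 0.33 ± 0.07 (edgeR adjusted p = 8.13e-06). SDHC, the other anchor, fell in Ver (log2 -0.19 ± 0.07, edgeR adjusted p = 0.0259), a call lost under DESeq2, without a filter, in the fit of the contrast's own groups, and when Ver control replicate 1 or Ver DHT replicate 2 was left out; SDHB passed the test in neither line.

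Complex III had 5 of 9 nuclear members higher with DHT in each line and 1 lower in Ver. Beside this, 21.2% of all genes tested were higher and 22.9% lower in Ver, and 21.8% higher and 22.5% lower in Vc. UQCRFS1, the Rieske iron-sulfur protein, was at 84.6 and 85.7 CPM with DHT against 62.6 and 63.6 CPM in Ver control and at 109.7 and 117 CPM against 69.6 and 73.3 CPM in Vc control. The log2 change was 0.43 ± 0.08 in Ver and 0.67 ± 0.07 in Vc, without overlap between the libraries. UQCRQ, a small accessory subunit, was at 67.9 and 67.9 CPM with DHT against 41.99 and 43.4 CPM in Ver control and at 62.7 and 55.8 CPM against 40.4 and 41.2 CPM in Vc control, again with no overlap. The member that fell in Ver was UQCRHL, a retrocopy of UQCRH, at 1.61 and 1.85 CPM with DHT against 3.59 and 4.83 CPM in Ver control; reads of these near-identical genes may be split, so its value is uncertain. UQCRH itself, the hinge protein, was at 101 and 99.2 CPM with DHT against 109 and 107 CPM in Ver control and passed the test in neither line.

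Complex IV, cytochrome c oxidase, had the highest nuclear median in Vc, at log2 0.59 with 6 of 11 members higher and none lower. In Ver the median was 0.21 with 5 higher and 1 lower. Beside this, 21.2% of all genes tested were higher and 22.9% lower in Ver, and 21.8% higher and 22.5% lower in Vc. COX6B1, which links the monomers of the enzyme, stood at 112 and 109 CPM with DHT against 60.5 and 68.4 CPM in Ver control, and at 136 and 134 CPM against 77.8 and 70.8 CPM in Vc control. Its log2 change was 0.77 ± 0.07 in Ver and 0.86 ± 0.07 in Vc (edgeR adjusted p = 2.47e-19 and 6.48e-24), with the DHT libraries far above the control libraries. COX5B, a matrix-side structural subunit, was at 73.1 and 75.8 CPM with DHT against 47.3 and 49.02 CPM in Ver control and at 89.3 and 98.98 CPM against 58.2 and 53.8 CPM in Vc control. COX8A, a small membrane subunit, was at 198 and 195 CPM with DHT against 122 and 138 CPM in Ver control and at 196 and 201 CPM against 127 and 117 CPM in Vc control. Neither gene's groups overlapped, with log2 changes of 0.63 and 0.59 in Ver and 0.75 and 0.70 in Vc. COX5A, which lies beside COX5B on the matrix side, fell in Ver to 77.6 and 77.1 CPM with DHT against 95.04 and 107 CPM in control (log2 -0.38 ± 0.07), while in Vc it was at 91.4 and 87.2 CPM against 99.2 and 98.4 CPM and did not pass the test. Of the paralogous pairs, the widely expressed forms COX6A1 and COX7A2 rose by 0.37 and 0.41 in Ver and by 0.63 and 0.59 in Vc on the log2 scale. The Ver call of COX6A1 was lost with library totals and when Ver DHT replicate 2 was left out. The muscle form COX7A1, at 6.42 and 5.91 CPM with DHT against 6.59 and 6.89 CPM in Ver control and 10.6 and 8.64 CPM against 7.24 and 6.80 CPM in Vc control, passed the test in neither line. COX6B2, the testis form, was at most 1.4998 CPM in any library and was not called.

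Complex V, the ATP synthase, had members that rose and members that fell. ATP5B, the catalytic beta subunit, was at 871 and 849.7 CPM with DHT against 735 and 753 CPM in Ver control, and at 917 and 914 CPM against 655 and 665 CPM in Vc control. Its libraries did not overlap in either line, and the log2 change was 0.21 ± 0.05 in Ver and 0.47 ± 0.05 in Vc (edgeR adjusted p = 6.98e-05 and 2.53e-17). With library totals the Ver call was lost (adjusted p = 0.766). ATP5A1, the alpha subunit that alternates with beta in the catalytic head, was at 302 and 308 CPM with DHT against 322 and 325 CPM in Ver control and at 391 and 403 CPM against 405 and 406 CPM in Vc control, and passed the test in neither line. ATP5D, the delta subunit of the central stalk, fell by -0.33 in Ver and -0.33 in Vc as signed log2 changes; the Ver call was lost without Ver control replicate 2. In all, 4 complex V members rose and 2 fell in Ver, and 5 rose and 2 fell in Vc, of 17 tested, with medians of -0.07 and -0.03. Beside this, 21.2% of all genes tested rose and 22.9% fell in Ver, and 21.8% rose and 22.5% fell in Vc.

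The 3 genes of the c subunit, whose mature proteins are identical and form the rotor ring, had different calls. ATP5G2 (ATP5MC2) was at 134 and 108 CPM with DHT against 162 and 164 CPM in Ver control and at 98.5 and 101 CPM against 133 and 126 CPM in Vc control, a fall in both lines (log2 -0.43 ± 0.06 and -0.38 ± 0.07; edgeR adjusted p = 2.61e-09 and 2.15e-07). ATP5G3 (ATP5MC3) was at 72.3 and 62.2 CPM with DHT against 68.7 and 68.6 CPM in Ver control, where the libraries overlapped, and at 118 and 119 CPM against 96.2 and 88.3 CPM in Vc control, where it rose (log2 0.36 ± 0.07, edgeR adjusted p = 6.08e-06). ATP5G1 (ATP5MC1), the lowest of the trio in CPM, was at 26.04 and 28.2 CPM with DHT against 27.9 and 27.01 CPM in Ver control and at 27.2 and 34.96 CPM against 32.3 and 33.6 CPM in Vc control, with overlap in either line and no call.

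**Figure D2:**
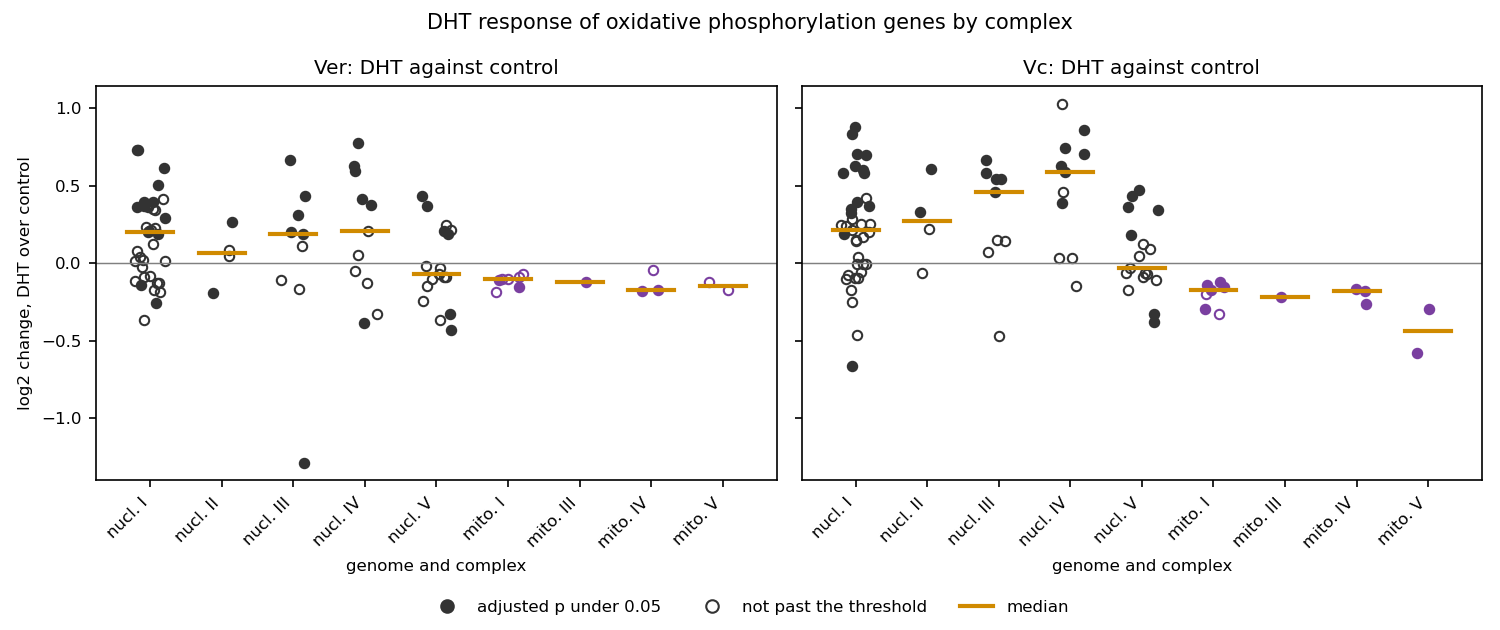
Log2 change with DHT over control for each tested member (points; filled past the threshold, open not), by genome (nucl., nuclear; mito., mitochondrial) and complex, in Ver (left) and Vc (right); bars are medians. Nuclear complex IV has a median of 0.59 in Vc, and every mitochondrial gene lies below 0 in both panels.

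Every mitochondrial gene had a negative log2 change with DHT in both lines, and the changes were small. In Ver 5 of 13 fell and in Vc 11 of 13 fell, against 22.9% and 22.5% of all genes; the median was -0.12 in Ver and -0.20 in Vc. The 13 genes share 1 genome and its polycistronic transcripts, so they are not independent counts of a change. MT-ND1, a core subunit of complex I, was at 1631 and 1693 CPM with DHT against 1749 and 1833 CPM in Ver control and at 1768 and 1656 CPM against 1997 and 1813 CPM in Vc control. MT-ND2 was at 987 and 1056 CPM against 1138 and 1132 CPM in Ver control and at 998 and 947 CPM against 1254 and 1136 CPM in Vc control, with no overlap in either line (log2 -0.15 ± 0.05 and -0.30 ± 0.05; edgeR adjusted p = 0.00656 and 7.14e-08). MT-CYB, the cytochrome b of complex III, was at 2023 and 2035 CPM with DHT against 2174 and 2236 CPM in Ver control and at 2148 and 1961 CPM against 2492 and 2298 CPM in Vc control. Both fell in both lines, as did MT-ND1. The Ver call of MT-ND1 was lost under DESeq2, with DESeq2-type size factors in edgeR, without a filter, in the fit of the contrast's own groups, and when control replicate 2 or DHT replicate 1 was left out. The Ver call of MT-ND2 was lost under DESeq2 and when DHT replicate 1 was left out, and that of MT-CYB when control replicate 2 or either DHT library was left out. In Vc the call of MT-ND1 was lost when control replicate 1 or DHT replicate 2 was left out. MT-CO1 was at 5828 and 5893 CPM with DHT against 6697 and 6587 CPM in Ver control and at 6458 and 6481 CPM against 7390.4 and 7279.9 CPM in Vc control, a like fall in both lines (log2 -0.18 ± 0.04 and -0.18 ± 0.04). MT-CO3 fell by -0.17 in Ver and -0.26 in Vc as signed log2 changes, at 2500.2 and 2528 CPM with DHT against 2758 and 2900.5 CPM in Ver control and 2560.2 and 2517 CPM against 3158 and 2935 CPM in Vc control. MT-CO2 was at 1908 and 1977 CPM against 1978 and 2021 CPM in Ver control, without a call, and at 2039.6 and 1920.4 CPM against 2356 and 2086 CPM in Vc control, where it fell, a call lost under DESeq2, in the fit of the contrast's own groups and when Vc control replicate 1 or Vc DHT replicate 2 was left out.

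The ATP synthase pair fell in Vc, MT-ATP8 with the largest change of the 13 genes. MT-ATP6, the proton channel subunit, was at 1178 and 1243 CPM with DHT against 1309 and 1327 CPM in Ver control and at 1258 and 1148 CPM against 1584 and 1368 CPM in Vc control. MT-ATP8 was at 48.6 and 51.6 CPM with DHT against 55.1 and 57.96 CPM in Ver control and at 63.3 and 45.5 CPM against 91.4 and 72.05 CPM in Vc control. Both passed the test in Vc (log2 -0.30 ± 0.07 and -0.58 ± 0.18; edgeR adjusted p = 0.000734 and 0.029) and not in Ver, and the Vc control libraries themselves lay apart. Both Vc calls were lost in the fit of the contrast's own groups, and that of MT-ATP8 also when Vc control replicate 1 was left out. For the remaining complex I genes in Vc, MT-ND4 was at 2609.7 and 2393 CPM with DHT against 2936 and 2695 CPM in control and MT-ND5 at 2123 and 1924 CPM against 2301 and 2097 CPM. MT-ND6, annotated on the other strand, was at 396 and 336 CPM against 419 and 390.1 CPM. It adjoins MT-ND5, and unstranded counting cannot tell the strands apart, so its counts may hold reads of the opposite strand. MT-ND4, MT-ND5 and MT-ND6 fell, while in MT-ND5 and MT-ND6 1 DHT library lay above the lower control library. All 3 calls were lost under DESeq2 and when Vc control replicate 1 or Vc DHT replicate 2 was left out, and those of MT-ND5 and MT-ND6 also in the fit of the contrast's own groups. MT-ND3, at 208 and 169.5 CPM with DHT against 261 and 214 CPM in Vc control, and MT-ND4L, at 293 and 249.98 CPM against 323 and 302 CPM, did not pass the test. In Ver these 5 genes were at 2262 and 2396 CPM with DHT against 2455 and 2547 CPM in control for MT-ND4, 1777 and 1877 against 1916 and 1972 CPM for MT-ND5, 309 and 322 against 330.1 and 331 CPM for MT-ND6, 178 and 206 against 217 and 219 CPM for MT-ND3 and 256 and 278 against 277 and 296 CPM for MT-ND4L, and none was called. The counts rest on single libraries. In Vc 5 of 13 were called without Vc control replicate 1, which had the highest mitochondrial sum of all libraries, and 6 without Vc DHT replicate 2. In Ver 3 were called when replicate 2 of the controls was left out and 2 when replicate 1 of the DHT libraries was. No mitochondrial gene was called higher under any of the scalings.

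**Figure D3:**
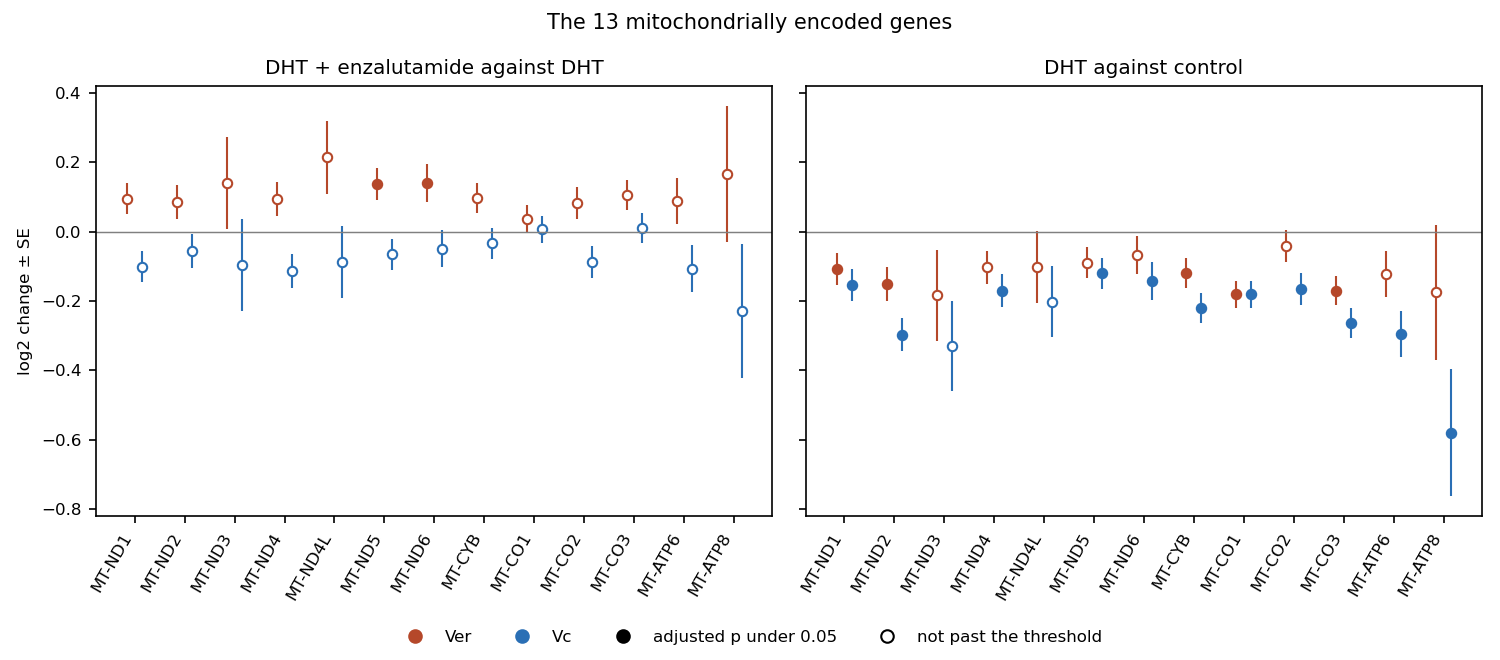
Log2 change ± SE of the 13 mitochondrially encoded genes in Ver and Vc, for DHT plus enzalutamide against DHT (left) and DHT against control (right); filled points passed the threshold. All points of the right panel lie below 0, and on the left the Ver points lie above 0, with MT-ND5 and MT-ND6 called.

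Enzalutamide alone gave almost no calls among these genes. In Ver no member passed the test (edgeR quasi-likelihood test with Benjamini-Hochberg adjustment), where 1.13% of all genes were called, 0.661% lower; 5 nuclear and 0 mitochondrial members had an unadjusted p under 0.05, and DESeq2 called 0. In Vc no nuclear member passed, where 0.537% of all genes were called, 0.381% lower; 6 had an unadjusted p under 0.05, and DESeq2 called 0. The single mitochondrial call in Vc was MT-ND2, at 1031 and 1056 CPM with enzalutamide against 1254 and 1136 CPM in control (log2 -0.20 ± 0.05, edgeR adjusted p = 0.0246). It was lost under DESeq2 and without Vc control replicate 1 or either Vc enzalutamide library. All 13 mitochondrial changes with enzalutamide in Vc were negative, with a median log2 change of -0.10 against 0.004 for all genes. By the edgeR test, 5 of the 13 had an unadjusted p under 0.05, as did 1894 of the 22553 genes tested.

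With enzalutamide on top of DHT, COX6B1 was lower and ATP5G2 and ATP5D were higher than with DHT alone in both lines. These comparisons share libraries with those above, the DHT libraries for the drug effect and the control libraries for the net effect, so the values stand side by side only. Against DHT alone, 8 nuclear members were higher and 3 lower with both compounds in Ver (26.9% of all genes called, 13.7% higher and 13.2% lower), and 3 were higher and 10 lower in Vc (22.4% of all genes called, 11.5% higher and 11.0% lower). With library totals alone the share of higher genes among all calls is 66.2% in place of 51.0% in Ver and 64.6% in place of 51.2% in Vc. COX6B1 was at 90.5 and 90.6 CPM with both compounds against 112 and 109 CPM with DHT in Ver, and at 113 and 113 CPM against 136 and 134 CPM in Vc. It was lower with both compounds in both lines (log2 -0.28 ± 0.07 and -0.26 ± 0.07; edgeR adjusted p = 0.000502 and 0.00139) and still above both control libraries of its line. COX8A was at 193 and 181 CPM with both compounds against 198 and 195 CPM with DHT in Ver, and at 167 and 167 CPM against 196 and 201 CPM in Vc, where it was lower (log2 -0.25 ± 0.06). UQCRFS1 and NDUFA1 were also lower in Vc, at 98.3 and 90.9 CPM against 109.7 and 117 CPM and at 19.7 and 20.1 CPM against 27.7 and 27.9 CPM. NDUFC1, a small complex I subunit, was at 9.79 and 11.3 CPM against 13.5 and 16.3 CPM. The Vc count of 13 dropped to 7 without Vc DHT plus enzalutamide replicate 2. The Vc calls of UQCRFS1 and NDUFC1 were lost when Vc DHT replicate 2 was left out, that of UQCRFS1 also when replicate 2 with both compounds was, and that of NDUFC1 also when replicate 1 with both compounds was and under DESeq2 and library totals.

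ATP5G2, the c subunit gene, was at 154 and 154 CPM with both compounds against 134 and 108 CPM with DHT in Ver, and at 113 and 121 CPM against 98.5 and 101 CPM in Vc (log2 0.35 ± 0.06 and 0.23 ± 0.07; edgeR adjusted p = 2.43e-06 and 0.00503). ATP5D was at 93.4 and 84.6 CPM against 67.5 and 65.8 CPM in Ver and at 79.5 and 90.03 CPM against 75.6 and 70.5 CPM in Vc. In both genes the libraries with both compounds lay above those with DHT. ATP5G1 was higher in Ver, at 35.4 and 35.7 CPM with both compounds against 26.04 and 28.2 CPM with DHT (log2 0.39 ± 0.12), and not called in Vc, at 32.7 and 31.3 CPM against 27.2 and 34.96 CPM. NDUFB4 was higher in Vc, at 69.7 and 71.9 CPM against 62.98 and 55.7 CPM, and not called in Ver, at 66.3 and 67.5 CPM against 62.5 and 64.7 CPM. In Ver COX5A was at 95.6 and 104 CPM with both compounds against 77.6 and 77.1 CPM with DHT, and NDUFA3 at 20.6 and 19.4 CPM against 15.8 and 13.5 CPM; both were higher. Leaving out Vc replicate 2 with both compounds ended the Vc calls of ATP5G2, ATP5D and NDUFB4, leaving out Vc DHT replicate 2 those of ATP5D and NDUFB4, and leaving out Vc DHT replicate 1 that of ATP5G2. ATP5D in Vc was also not called by DESeq2 (adjusted p = 0.179) or with DESeq2-type size factors in edgeR (adjusted p = 0.0598). In Ver the call of ATP5G1 was lost when DHT replicate 1 was left out, and that of NDUFA3 under DESeq2 and when DHT replicate 2 or replicate 1 with both compounds was left out.

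Among the mitochondrial genes, MT-ND5 and MT-ND6 were higher with both compounds than with DHT in Ver. MT-ND5 was at 2002 and 2016 CPM against 1777 and 1877 CPM, and MT-ND6 at 351 and 343 CPM against 309 and 322 CPM. Their log2 changes were 0.14 ± 0.05 and 0.14 ± 0.05 (edgeR adjusted p = 0.0133 and 0.0462). The strand limit on MT-ND6 counts given above holds here too. All 13 had a positive change in Ver, and 2 had one in Vc, where edgeR called none, 2 had an unadjusted p under 0.05 and DESeq2 called 1. The Ver calls are fragile: the count is 0 without Ver DHT plus enzalutamide replicate 1 or 2 or Ver DHT replicate 1, 1 without Ver DHT replicate 2, 0 with DESeq2 and 11 with library totals. In Vc, 2 were called without Vc DHT replicate 2. Against control, the net effect of both compounds was 1 mitochondrial gene lower in Ver (MT-CO1, 5974 and 6049 CPM against 6697 and 6587 CPM) and 12 lower in Vc, with 22.7% and 28.5% of all genes called, 10.3% and 13.2% lower. The Vc calls of MT-ND3, MT-ND5, MT-ND6 and MT-ATP8 depend on single libraries. A difference between the lines in this net effect was not tested. On the nuclear side 18 were higher and none lower in Ver, and 22 higher and 1 lower (NDUFB4) in Vc, where 12.4% and 15.3% of all genes were higher. Library totals turn the share of higher genes among those calls to 36.6% in place of 54.5% in Ver and 38.2% in place of 53.8% in Vc. The difference between the lines in the drug effect on top of DHT, tested directly with edgeR, called no member, while 1.29% of all genes were called; 14 nuclear and 7 mitochondrial members had an unadjusted p under 0.05 and DESeq2 called 0, and all 13 mitochondrial differences (Ver minus Vc) were positive, with a median of 0.20. With library totals 3 mitochondrial genes were called for that difference, and 3 without Vc DHT replicate 2.

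In control medium, after their 4 months with and without enzalutamide, Ver differed from Vc in single subunits in both directions. There, 7 nuclear members were higher and 12 lower in Ver than in Vc, with 18.9% of all genes called, 9.13% higher and 9.73% lower. NDUFA9, a matrix-arm subunit of complex I, was at 16.6 and 16.2 CPM in Ver against 11.6 and 9.18 CPM in Vc (log2 0.65 ± 0.17, edgeR adjusted p = 0.00136), a call lost without Vc control replicate 2. NDUFS1, the largest core subunit of complex I, was lower at 135 and 138 CPM in Ver against 183 and 184 CPM in Vc (log2 -0.42 ± 0.06, edgeR adjusted p = 7.76e-10). The libraries of the lines did not overlap for either. NDUFA4, which carries a complex I name and is known as a subunit of complex IV, was at 62.3 and 63.3 CPM in Ver against 47.3 and 47.7 CPM in Vc and was higher in Ver. Within ATP synthase, ATP5A1 was at 322 and 325 CPM in Ver against 405 and 406 CPM in Vc, and ATP5B at 735 and 753 CPM against 655 and 665 CPM, so that the alpha subunit was lower and the beta subunit higher in Ver (log2 -0.32 ± 0.05 and 0.17 ± 0.05; edgeR adjusted p = 9.41e-08 and 0.00312). The ATP5B call was lost without Vc control replicate 1. Of the c subunit genes, ATP5G3 was at 68.7 and 68.6 CPM in Ver against 96.2 and 88.3 CPM in Vc and ATP5G2 at 162 and 164 CPM against 133 and 126 CPM. ATP5G3 was thus lower and ATP5G2 higher in Ver, by log2 -0.43 ± 0.08 and 0.33 ± 0.06. ATP5S (DMAC2L), a factor associated with ATP synthase, was higher at 61.1 and 59.04 CPM against 41.3 and 43.2 CPM. LUM, 1 of 10 stromal, endothelial and immune markers, also moved with the line, at 57.2 and 49.6 CPM in Ver against 14.01 and 13.5 CPM in Vc. The rest of these markers stayed low, with sums of 2.12 to 3.68 CPM over the libraries without DHT of both lines. The part of LUM in these differences was not tested. The mitochondrial genes numbered 6 lower in Ver and none higher (median -0.14). Leaving out replicate 1 of the Vc controls gave 2 calls, leaving out replicate 2 of the Vc controls 10, and leaving out replicate 1 of the Ver controls 3.

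**Figure D4:**
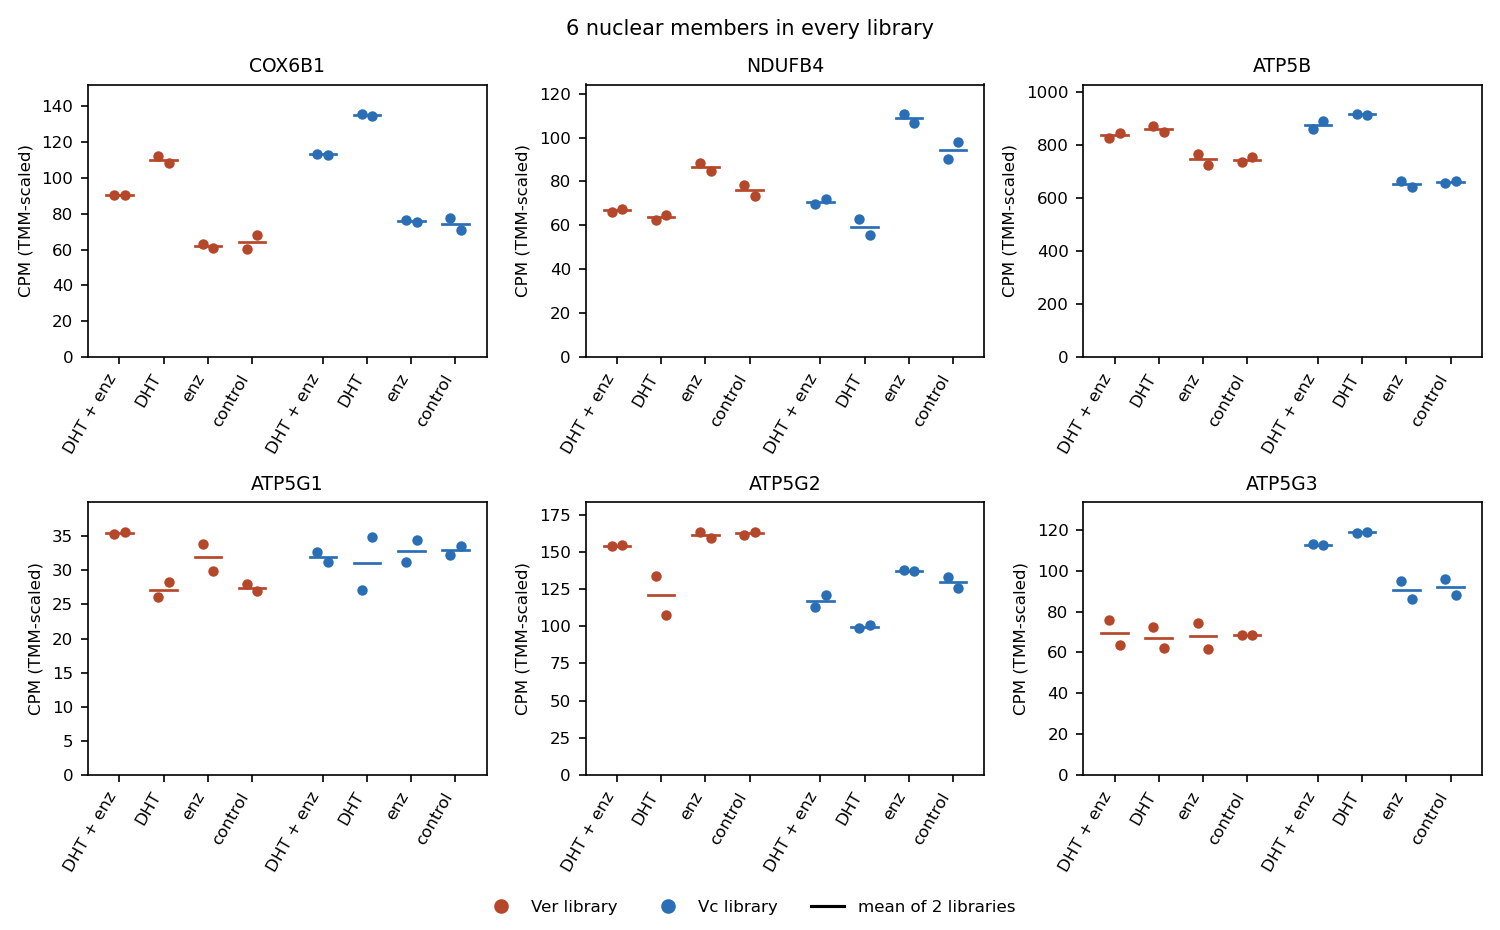
CPM of COX6B1, NDUFB4, ATP5B and the c subunit genes ATP5G1, ATP5G2 and ATP5G3 in every library (points; lines are means of 2 libraries), by line and treatment (enz, enzalutamide). ATP5G3 is higher with DHT than in control in Vc and overlaps in Ver, while ATP5G2 is lower with DHT in both lines.

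The DHT response of 3 nuclear members differed between the lines when the difference itself was tested, with 2.32% of all genes called, 0.891% with a higher and 1.43% with a lower change in Ver. NDUFB4 fell less in Ver than in Vc (difference, Ver minus Vc, log2 0.41 ± 0.11; edgeR adjusted p = 0.0146). ATP5B rose less in Ver (log2 -0.26 ± 0.07, edgeR adjusted p = 0.00908). For ATP5G3, which passed the test in Vc and not in Ver, the difference was log2 -0.39 ± 0.11 (edgeR adjusted p = 0.0204). For all 3 the control levels also differed between the lines, as given above. With DHT, NDUFB4 was at 62.5 and 64.7 CPM in Ver against 62.98 and 55.7 CPM in Vc, so its libraries lay close to each other there. These calls are near the threshold: the number was 1 without Vc DHT replicate 2 and 0 without Ver control replicate 2 or Ver DHT replicate 2. No mitochondrial member was called for this difference by edgeR, 1 had an unadjusted p under 0.05, and DESeq2 called 0; 1 was called without Vc control replicate 2 or without Vc DHT replicate 1. The difference in the enzalutamide response called no member either with edgeR, with 0.0222% of all genes called; 7 nuclear and 1 mitochondrial member had an unadjusted p under 0.05, and DESeq2 called 0.

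Other genes of the same pathway gave a mixed picture with DHT. Of 18 genes of the citric acid cycle and pyruvate entry, which supply the electrons, 8 were higher and 4 lower in Ver and 10 higher and 2 lower in Vc, beside 21.2% (Ver) and 21.8% (Vc) of all tested genes higher and 22.9% (Ver) and 22.5% (Vc) lower. IDH3A, PDHA1 and OGDH rose by 0.69, 0.50 and 0.16 in Ver and 0.73, 0.71 and 0.56 in Vc on the log2 scale, and OGDH rose less in Ver (difference -0.40 ± 0.08, edgeR adjusted p = 0.000361). Of 8 tested subunits and electron carriers outside the naming rule, 5 were higher in Ver and 6 in Vc and none lower. CYCS, cytochrome c, was at 125 and 119 CPM with DHT against 83.98 and 71.1 CPM in Ver control and at 115 and 117 CPM against 69.8 and 64.8 CPM in Vc control. CYC1, the cytochrome c1 of complex III, was at 99.8 and 88.03 CPM against 88.2 and 99.02 CPM in Ver control, with overlap, and at 105 and 109 CPM against 75.8 and 81.3 CPM in Vc control; its response differed between the lines (log2 -0.45 ± 0.10, edgeR adjusted p = 0.00205).

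Assembly factors build the complexes and are not part of them. Of 17 complex I assembly factors 3 were higher and 5 lower in Ver, and 1 was higher and 7 lower in Vc. The background was 21.2% of all tested genes higher and 22.9% lower with DHT for Ver, 21.8% higher and 22.5% lower for Vc. Of 6 for complex III, 2 were lower in Ver and 3 in Vc, and none was higher. Of 21 for complex IV, 6 were higher and 3 lower in either line, and counts this small are read as descriptions. COA7, a complex IV assembly factor, was at 12.6 and 9.41 CPM with DHT against 25.7 and 27.997 CPM in Ver control and at 11.5 and 12.6 CPM against 28.95 and 26.8 CPM in Vc control. NDUFAF6, of complex I, had a DHT response that differed between the lines (log2 0.58 ± 0.16, edgeR adjusted p = 0.024). Factors for complexes II and V were few: of 4 each, 1 was higher and 1 lower for complex II and 0 higher and 1 lower for complex V in Ver, and 2 higher and 1 lower for complex II and 1 higher and 1 lower for complex V in Vc.

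In a list of nuclear genes for mitochondrial transcription and RNA handling, which holds no mitochondrial ribosomal proteins, more genes fell than rose with DHT. Of 26 tested, 3 rose and 14 fell in Ver, and 4 rose and 13 fell in Vc, where 21.2% of all tested genes rose and 22.9% fell (Ver) and 21.8% rose and 22.5% fell (Vc). LRPPRC, which stabilises mitochondrial messenger RNAs, was at 172 and 194 CPM with DHT against 249 and 238 CPM in Ver control and at 162 and 162 CPM against 269.9 and 269 CPM in Vc control. It fell in both lines (log2 -0.41 ± 0.06 and -0.73 ± 0.06), and less in Ver (difference 0.32 ± 0.08, edgeR adjusted p = 0.0076). REXO2, a nuclease that degrades short RNAs in mitochondria, was at 64.8 and 66.99 CPM with DHT against 85.1 and 77.1 CPM in Ver control and at 58.4 and 55.8 CPM against 115 and 105 CPM in Vc control, with a difference in response of 0.64 ± 0.10 (edgeR adjusted p = 1.87e-06). TFAM, which packages mitochondrial DNA and starts its transcription, fell by log2 -0.47 ± 0.08 in Ver and -0.38 ± 0.08 in Vc as signed changes. POLRMT, the mitochondrial RNA polymerase, was at 44.2 and 32.7 CPM against 57.2 and 55.1 CPM in Ver control and at 36.4 and 36.3 CPM against 43.3 and 49.9 CPM in Vc control and also fell. Of 11 genes of mitochondrial DNA replication, 3 were higher and 6 lower in Ver and 2 higher and 6 lower in Vc. TWNK, the replicative helicase, was at 12.9 and 16.2 CPM with DHT against 31.1 and 36.1 CPM in Ver control and at 12.5 and 9.65 CPM against 39.3 and 40.2 CPM in Vc control. TOP1MT and MGME1 fell by -1.31 and -1.35 in Ver and -1.87 and -1.42 in Vc as signed log2 changes. The part of these genes in the mitochondrial levels was not tested.

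**Figure D5:**
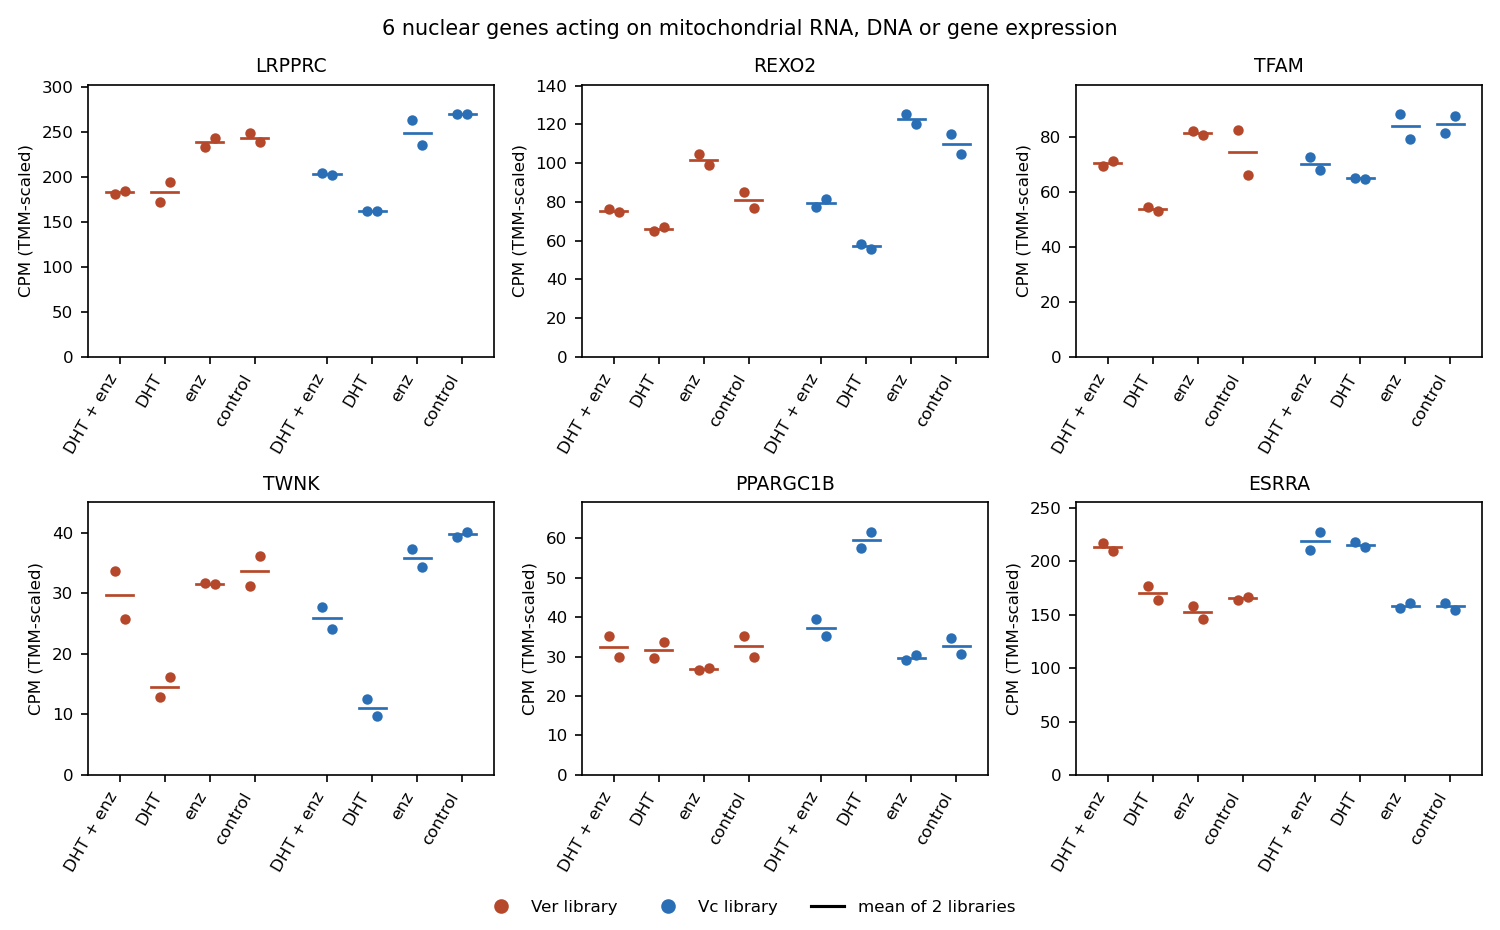
CPM of LRPPRC, REXO2, TFAM, TWNK, PPARGC1B and ESRRA in every library (points; lines are means of 2 libraries), by line and treatment (enz, enzalutamide). PPARGC1B and ESRRA are higher with DHT than in control in Vc and overlap in Ver, and the 4 others are lower with DHT in both lines.

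The coactivator PPARGC1B and the nuclear receptor ESRRA, both known as activators of nuclear respiratory genes, were the regulators whose DHT response was called different between the lines. PPARGC1B was at 29.5 and 33.7 CPM with DHT against 35.2 and 29.97 CPM in Ver control, with overlap, and at 57.5 and 61.7 CPM with DHT against 34.8 and 30.8 CPM in Vc control. The difference in response was log2 -0.90 ± 0.15 (edgeR adjusted p = 8.16e-06). ESRRA was at 177 and 164 CPM with DHT against 164 and 167 CPM in Ver control and at 218 and 214 CPM against 161 and 155 CPM in Vc control, and its responses differed by -0.41 ± 0.08 (edgeR adjusted p = 0.000278). With both compounds ESRRA was at 217 and 209 CPM in Ver and 211 and 228 CPM in Vc, above control in either line. Of the 10 regulators tested, 1 was higher and 2 lower in Ver and 4 higher and 2 lower in Vc. Among all genes tested, 21.2% were higher and 22.9% lower in Ver, and 21.8% higher and 22.5% lower in Vc. Counts this small are read as descriptions. NRF1 itself passed the test in neither line.

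The labels were checked on other genes. TMPRSS2 and FKBP5, known androgen targets, rose with DHT by log2 2.11 ± 0.05 and 4.63 ± 0.08 in Ver and 1.87 ± 0.05 and 4.79 ± 0.07 in Vc. Of 6 VCaP markers, 5 rose with DHT in Ver and 6 in Vc. The shares of all genes tested were 21.2% higher and 22.9% lower in Ver and 21.8% higher and 22.5% lower in Vc. A rise with DHT is a response and does not identify the cells. Of 10 stromal, endothelial and immune markers 3 were tested, and 1 of them, LUM, fell with DHT in both lines. The 10 markers summed to 2.96 to 29.7 CPM in the libraries with DHT and to 15.6 to 83.9 CPM in those without. LUM alone was at 0.328 to 23.9 CPM with DHT and 13.5 to 81.1 CPM without, and the other 9 summed to 2.63 to 5.86 CPM and 2.12 to 3.68 CPM; COL1A2 and CD3E had 1 count each. LUM was called higher in Ver than in Vc in control medium. The part of LUM-expressing cells in the results was not tested. Libraries held 8155244 to 13273523 gene counts, of which 1 gene, MALAT1, took 7.44 to 10.3%. The exact 95% binomial interval of the mitochondrial share of a library was 0.0154 to 0.0212 percentage points wide and covers counting error only.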

How the data were processed

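The authors deposited a file of read counts by gene for each of the 16 libraries and 1 table of normalized values (a signal) for the series. The deposited signal equals the counts divided by DESeq2-type size factors, checked against the files, and was used for gene names only. Tools named in the submitters' processing notes are HTSeq 0.11.1, HISAT2, SAMtools, Trimmomatic 0.36-5 and FastQC 0.11.7, with GRCh38. Counting was unstranded and in union mode, as the deposited files' names state. Summary lines for reads not assigned to a gene were set aside, and the tables hold 0 columns of other samples.

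Groups came from the labels. The test was that of edgeR 4.0.16 (R 4.3.3) on the counts, with genes kept by filterByExpr (minimum count 10, 22553 genes) and TMM scaling. The 8 groups were fitted in 1 robust quasi-likelihood fit with 8 residual degrees of freedom. Variation between libraries beyond counting noise was 6.01%, as a common coefficient. F tests were two-sided, with Benjamini-Hochberg adjustment over all genes tested and calls at 0.05. SE is the Wald standard error. The procedure was tested on simulated data. Members were linked by gene identifier; exon lengths and overlaps came from GENCODE 29, promoters from RefSeq. Replicates differed by more than sampling noise (chi-square per degree of freedom 2.40 to 3.47), so none was merged.

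Named were the 6 called nuclear members with the largest change per comparison (mean 5 CPM or more), the mitochondrial genes, paralogous subunits, members called for a difference between lines, and the 4 genes of each other list with the smallest adjusted p or a called difference; the text gives a part of these. SDH genes, ATP5A1, UQCRC1 and similar subunits were named for their role. Members, lists and rules were chosen with earlier results of these data known. Alternatives were DESeq2 1.42.0, other scalings, no filter, fits of single contrasts, a replicate block and leaving out each library. One gene-level result is not reported here.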

Additional observations from a re-analysis of the deposited data

Results flagged for a closer look

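The DHT response of 3 nuclear members differed between Ver and Vc by a test of the difference itself (edgeR quasi-likelihood test, Benjamini-Hochberg adjusted). For NDUFB4 the difference, Ver minus Vc, was 0.41 ± 0.11 on the log2 scale (adjusted p = 0.0146): the change was -0.26 in Ver and -0.66 in Vc. For ATP5B it was -0.26 ± 0.07 (adjusted p = 0.00908), with changes of 0.21 in Ver and 0.47 in Vc. For ATP5G3 it was -0.39 ± 0.11 (adjusted p = 0.0204), with changes of -0.03 in Ver and 0.36 in Vc. When each of the 8 libraries involved was left out in turn, the highest adjusted p was 0.203 for NDUFB4, 0.0697 for ATP5B and 0.261 for ATP5G3, so each call depends on single libraries. DESeq2 called 2 nuclear members and did not call ATP5G3. Groups of 2 libraries are too small for a check of outlying libraries.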

How the results depend on the processing

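With library totals in place of TMM, NDUFA5 (-8.21e-07), ATP5F1 (-0.0011) and UQCRB (-0.0038) had log2 changes with DHT in Ver just below 0; mitochondrial calls were 12 for DHT in Ver, 11 for both compounds against DHT in Ver, 4 for both against control in Ver and 3 for the difference in drug effect on top of DHT, and nuclear calls for both against DHT in Ver were 17. This scaling shifts all log2 changes with DHT downwards. With DESeq2-type size factors in edgeR, mitochondrial calls for both against DHT were 1 in Ver and 2 in Vc, and the nuclear sum in Ver with both compounds was 5292 CPM. Without a filter, mitochondrial calls were 2 for enzalutamide in Vc and 1 for the difference in drug effect. DESeq2 called 3 mitochondrial genes for DHT in Ver, 0 for enzalutamide in Vc, and 0 in Ver and 1 in Vc for both against DHT. Fits of the contrast's own groups called 7 mitochondrial genes for DHT, 2 for enzalutamide and 4 for both against DHT in Vc, and 1 for the difference in drug effect. The causes of these differences were not tested. Adding nuclear copies gave mitochondrial sums of 22944 CPM (both) and 23699.9 CPM (control) in Ver and 22047 CPM (both) and 24749.9 CPM (enzalutamide) in Vc, and ratios of 4.32 (both) and 4.92 (control) in Ver. Leaving out each library in turn, mitochondrial calls ranged from 2 to 6 in Ver and 5 to 13 in Vc for DHT, 0 to 1 for enzalutamide in Vc, 0 to 1 in Ver and 0 to 2 in Vc for both against DHT, 2 to 10 for Ver against Vc, 0 to 1 for the difference in DHT response and 0 to 3 for that in drug effect on top of DHT. Nuclear calls ranged from 7 to 9 for both against DHT in Vc, 0 to 4 for the difference in DHT response and 0 to 1 for that in drug effect. No shared effect of the replicate number was seen: deviations of same-numbered libraries correlated between -0.05 and 0.05 over 28 pairs of groups. Whether same-numbered libraries were handled together cannot be told from these values. With the number as a replicate block, nuclear calls for DHT were 33 in Ver and 34 in Vc and mitochondrial calls 5 and 11, and over all members and comparisons 2 results gained a call and none lost one. Reading the ending rule to the letter removes MT-ATP6 and MT-ATP8, a setting chosen after seeing the data; it leaves 5 mitochondrial calls for DHT in Ver and 9 in Vc. All other counts stayed within 1.5 times. At this depth a change in COX8C or ATP5J2LP was not detectable.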

Other observations

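The proteins of the mitochondrial ribosome, all encoded in the nucleus, translate the 13 mitochondrial messenger RNAs. Of 77 tested, 15 were higher and 16 lower with DHT in Ver, and 14 higher and 21 lower in Vc, shares near those of all genes in Ver. Among all genes tested, 21.2% were higher and 22.9% lower in Ver, and 21.8% higher and 22.5% lower in Vc. MRPS25 changed by -0.96 ± 0.08 in Ver and -1.26 ± 0.07 in Vc on the log2 scale, MRPL49 by 0.96 and 0.82, and MRPS27 by -0.79 and -1.07. MRPL41 and MRPL15 had DHT responses that differed between the lines, by -0.53 ± 0.11 and -0.53 ± 0.13 (Ver minus Vc; edgeR adjusted p = 0.000268 and 0.01).

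The 2 mitochondrial ribosomal RNAs, which are not targets of a polyadenylated RNA preparation, held 0.0700 to 0.329% of the gene counts of a library. Neither was called with DHT by edgeR, at medians of -0.06 in Ver and -0.46 in Vc on the log2 scale.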
